A study of Mus musculus with 40 samples.

Results

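Circadian clock genes were followed in CD11b+ cells, the myeloid cells sorted from mouse brains with or without experimental glioma. The set held 10 named genes out of 54513 rows of the deposited tables, of which 21826 were protein-coding. The members were chosen by name and not by their values: Arntl, Clock, Cry1, Cry2, Per2, Per3, Nr1d1, Nr1d2, Dbp and Tef. A list of 18 further clock genes was set beside them.

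RNA sequencing was performed in 3 experiments, and 35 of the 40 labelled samples had values in the tables. The remaining 5 samples, which include the 3 naive nude mice, were not analysed here. In the first experiment, C57BL/6 mice carried GL261 glioma, a mouse glioma line labelled with tdTomato and luciferase, and were sampled 21 days post-implantation (DPI), and GL261 given without a day refers to this experiment. They received water (vehicle), the peptide 7aaRGD, which carries the integrin-binding RGD motif, or the control peptide 7aaRAE, in which that motif is altered, through osmotic pumps at 2 mg/ml, and naive mice carried no tumor (3 samples per group). In the second experiment, the mice carried the same GL261 glioma, per the study's methods, and at 28 DPI were sampled after vehicle (n = 4), 7aaRGD (n = 4), an antibody against PD-1 at 10 mg/kg (n = 3) or the combination (n = 3), and the study's methods give control IgG to the groups without the antibody. In the third, athymic nude mice carried human U87-MG glioma labelled with RFP and were sampled at 21 DPI after vehicle, 7aaRGD or 7aaRAE (n = 3 each). The mice were males of 10 to 12 weeks kept on 12 h of light and 12 h of darkness. Each 21 DPI sample pooled 2 animals and each 28 DPI sample came from 1. The clock time of collection is not given in the sources used here.

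Labels and markers did not match throughout. The titles of the 28 DPI samples name nude mice, whereas the study's methods describe C57BL/6 mice, and the transcript H2-Ea-ps was at most 0.0976 RPKM in all 28 DPI and 21 DPI GL261 samples against 22.5 to 374 RPKM in the U87-MG samples. The labels of the 21 DPI samples name glioma cells as the cell type, but the summed level of 4 CD11b+ myeloid markers (Itgam, Ptprc, Csf1r, Aif1) ranged from 965 to 3368 RPKM over the 35 samples. Values are RPKM, read counts scaled to gene length and to library size, so levels can be compared between genes. The tables were normalized separately, so levels set side by side across experiments carry no test, and the sequencing depth behind them is unknown. In the U87-MG table, the 7aaRGD sample 2 and the 7aaRAE sample 2 stood apart from the other 7 samples (first principal component, 49.8% of the variance, at -22.8 and -27.5 against -1.81 to 15.5). Counts of members called and correlations in U87-MG are therefore also given without them.

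The mammalian clock is a feedback loop of transcription. ARNTL (also called BMAL1) and CLOCK bind E-boxes as a pair and activate the Per and Cry genes, whose proteins repress that pair, and they also activate Nr1d1 and Nr1d2, whose products (REV-ERBs) repress Arntl, Clock and Cry1 through ROR response elements. Dbp and Tef encode PAR bZIP factors that act on D-boxes. In a rhythmic tissue, Arntl and Clock therefore peak in a different phase from Nr1d1, Dbp, Tef and the Per genes, and macrophages and microglia are known to carry such a clock. Arntl, Clock and Cry1 are called here the ARNTL-phase arm, and Nr1d1, Nr1d2, Dbp, Tef, Per2 and Per3 the opposite arm. Cry2 was kept beside them.

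Promoter windows from RefSeq (build GRCm38.p6), each running from 250 bases before to 50 bases after an annotated start, were read for 9 of the 10 members. They are shown because the feedback described above acts through such elements. Both strands were searched for the E-box CACGTG, the related box CACGTT, the D-box TTATGTAA and the ROR element GTAGGTCA, and matches are in capitals. The motifs do not overlap each other in these windows.
Arntl, chr7:113207261-113207560, plus strand, ROR element: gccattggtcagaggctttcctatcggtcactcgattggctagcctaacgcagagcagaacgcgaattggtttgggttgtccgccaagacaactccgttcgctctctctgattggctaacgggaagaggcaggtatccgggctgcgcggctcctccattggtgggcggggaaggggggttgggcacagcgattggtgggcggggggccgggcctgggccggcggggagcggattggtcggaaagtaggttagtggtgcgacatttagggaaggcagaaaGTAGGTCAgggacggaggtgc
Cry1, chr10:85185005-85185304, minus strand, CACGTT box on the opposite strand and E-box: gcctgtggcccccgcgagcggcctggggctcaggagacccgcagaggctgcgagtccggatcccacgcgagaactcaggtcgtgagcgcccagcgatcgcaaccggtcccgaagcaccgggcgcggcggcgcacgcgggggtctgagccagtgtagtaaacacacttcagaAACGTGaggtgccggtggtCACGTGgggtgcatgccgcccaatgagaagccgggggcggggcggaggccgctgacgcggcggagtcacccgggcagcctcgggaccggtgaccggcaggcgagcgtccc
Nr1d1, chr11:98775328-98775627, minus strand, CACGTT box on the opposite strand: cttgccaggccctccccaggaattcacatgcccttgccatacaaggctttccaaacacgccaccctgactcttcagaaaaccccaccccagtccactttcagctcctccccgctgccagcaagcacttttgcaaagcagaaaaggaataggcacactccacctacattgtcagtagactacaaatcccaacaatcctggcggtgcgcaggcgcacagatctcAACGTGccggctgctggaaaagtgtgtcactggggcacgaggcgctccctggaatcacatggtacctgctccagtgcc
Tef, chr15:81811164-81811463, plus strand, E-box: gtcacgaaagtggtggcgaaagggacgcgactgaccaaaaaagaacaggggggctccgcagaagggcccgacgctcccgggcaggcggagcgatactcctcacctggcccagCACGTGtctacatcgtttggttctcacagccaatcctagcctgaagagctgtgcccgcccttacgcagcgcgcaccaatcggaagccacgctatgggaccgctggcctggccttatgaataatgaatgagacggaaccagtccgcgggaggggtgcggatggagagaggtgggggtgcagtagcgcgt
Per3, chr4:151044616-151044915, minus strand, D-box at 2 places: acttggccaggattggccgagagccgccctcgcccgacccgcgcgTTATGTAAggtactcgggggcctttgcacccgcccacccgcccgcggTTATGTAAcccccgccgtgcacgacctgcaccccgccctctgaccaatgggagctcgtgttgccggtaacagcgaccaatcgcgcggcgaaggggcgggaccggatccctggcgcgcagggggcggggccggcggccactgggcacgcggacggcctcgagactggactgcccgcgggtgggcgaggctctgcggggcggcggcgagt

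The E-box was present in windows of 2 members (Cry1 and Tef, the latter in both of its windows) against 7.15% of all 32851 windows. The CACGTT box was in windows of 3 members (Cry1, Cry2 and Nr1d1) against 4.68% of windows. The D-box was only in the window of Per3 (0.938% of windows) and the ROR element only in a window of Arntl (0.621% of windows) among the members with a window. A match of letters is a description of the sequence, not a binding site.

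Expression of the clock genes was low in every group. In the naive brain, the PAR bZIP gene Tef had the highest level of the members, 13.1 ± 0.961 RPKM (SD, n = 3), followed by Nr1d2 at 8.54 ± 0.0774, Dbp at 5.07 ± 0.348 and Cry1 at 4.50 ± 0.287 RPKM. Dbp and Cry1 were neighbours in this order whose samples overlapped, at 4.68 to 5.35 and 4.27 to 4.82 RPKM. Per2 and Per3, at 1.02 ± 0.0712 and 1.04 ± 0.121 RPKM, were the lowest and did not differ beyond their spread. In GL261 glioma the order was another: Cry1 had the highest mean over the 9 tumor-bearing samples, 6.21 RPKM, Tef had 3.01 RPKM and Nr1d2 2.81 RPKM, and Arntl, Cry2, Nr1d1, Per2 and Per3 had means below 1 RPKM. At 28 DPI, Cry1 (mean 4.90 RPKM over 14 samples) and Tef (4.22 RPKM) again led, and their ranges overlapped. In the U87-MG samples Tef led with a mean of 8.48 RPKM over 9 samples, followed by Nr1d2 with 6.01 RPKM and Cry1 with 4.46 RPKM. Per3 was the lowest member in all 3 sets of tumor-bearing samples, with means of 0.186, 0.411 and 0.722 RPKM.

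**Figure D1:**
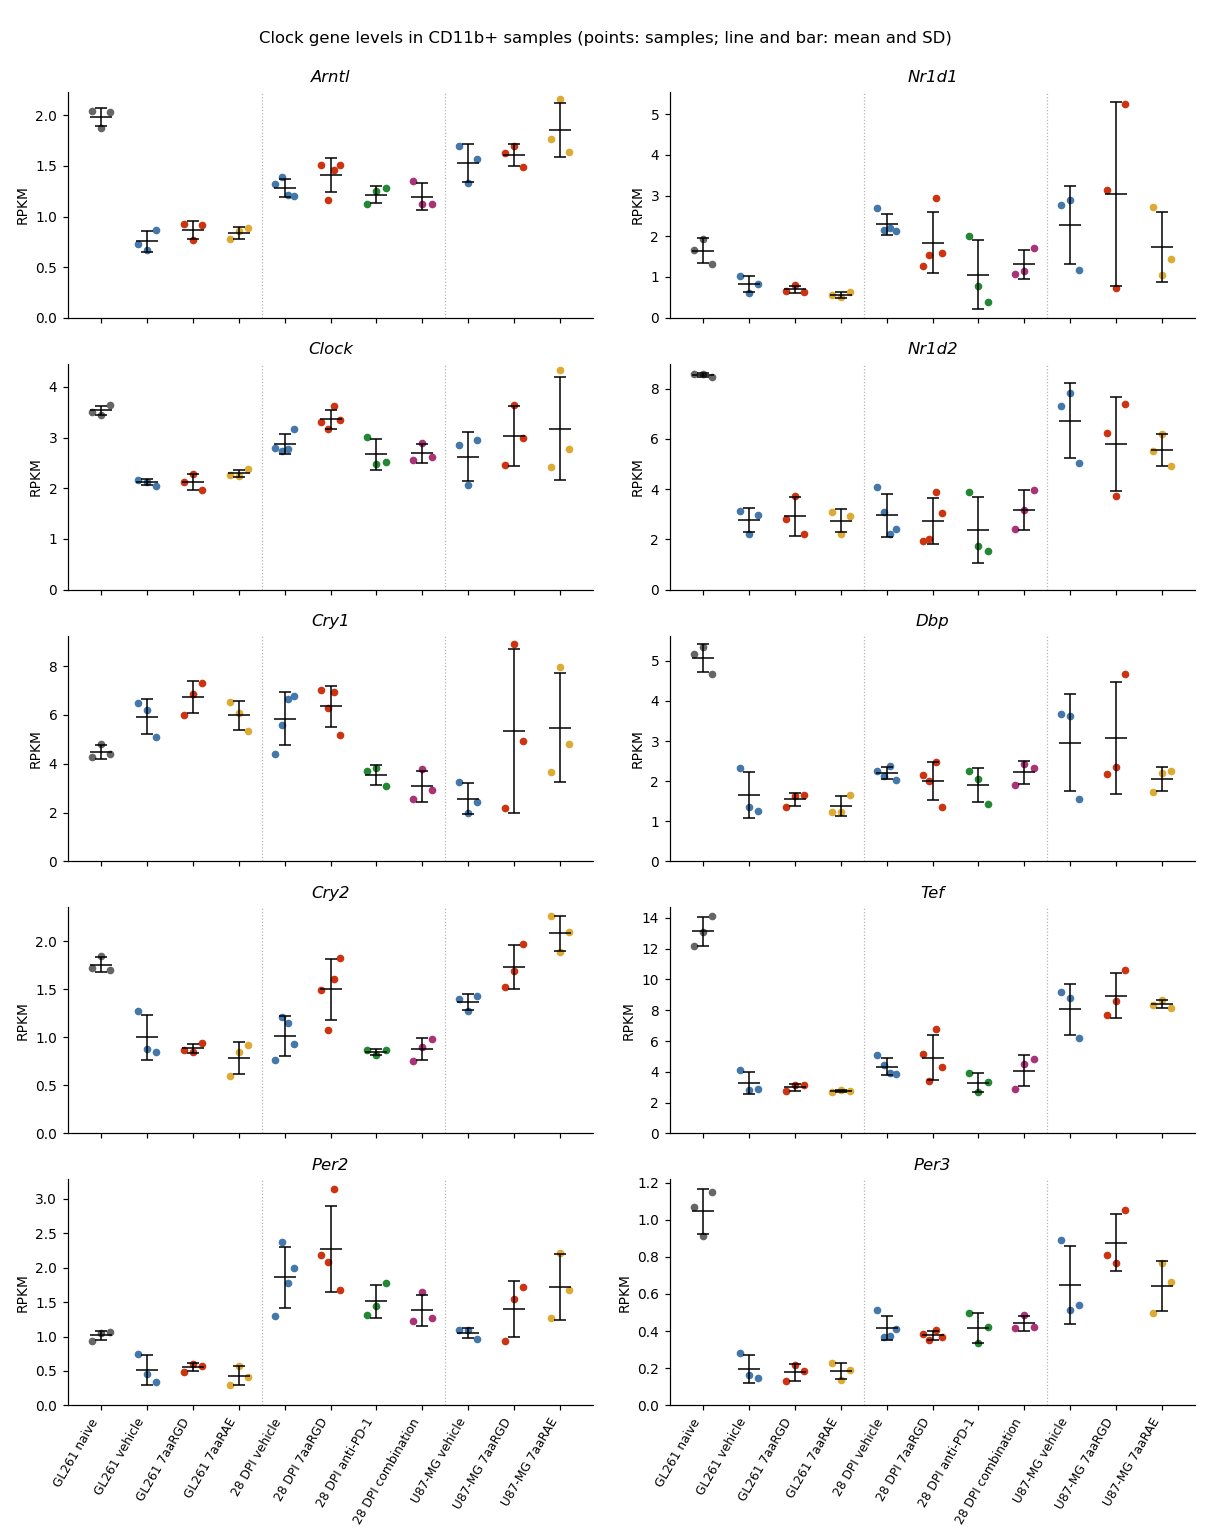
Level of each clock gene in RPKM (vertical axis, from 0) in the 11 groups of CD11b+ samples (horizontal axis); points are samples, the line is the mean and the bar the SD. Tef was 12.2 to 14.1 RPKM in naive samples and 2.69 to 4.13 RPKM in GL261 tumor-bearing samples, and Nr1d1 and Cry1 spread most among U87-MG samples.

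The naive brain was compared with vehicle-treated GL261 glioma to ask how myeloid cells of a tumor differ from those of a healthy brain. Of the 8 members that passed the filter on low values (a mean of at least 1 RPKM), 7 were higher in naive cells and 1, Cry1, was lower (limma on log2(RPKM + 1), Benjamini-Hochberg adjusted p under 0.05). This comparison called 82.9% of the 9722 genes tested, 48.2% of them higher and 34.6% lower in naive cells, so being called does not set the members apart. With TMM factors the split over all genes turned from 4690 higher and 3366 lower to 3847 higher and 4032 lower. Members of both arms were higher in naive cells, and the arms were not opposed. The median difference of the 8 members was 0.65 on the log2 scale, against 0.14 over all genes tested. Arntl and Nr1d1 passed the filter only through the naive samples, as their vehicle means were 0.756 and 0.814 RPKM. The count of 7 and this median therefore lean toward members that are high in naive cells.

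Arntl, the partner of CLOCK (ENSMUSG00000055116.8, chr7:113207465-113314126), had 2.04, 1.88 and 2.03 RPKM in the naive samples and 0.732, 0.666 and 0.870 RPKM in the vehicle samples. The groups did not overlap, and the naive level was 0.77 higher on the log2(RPKM + 1) scale (SE 0.071, adjusted p = 1.63e-05 by limma). Clock (ENSMUSG00000029238.11, chr5:76209868-76304792) stood at 3.51, 3.45 and 3.64 RPKM in naive and 2.17, 2.13 and 2.05 RPKM in vehicle samples, a difference of 0.54 (SE 0.056). Cry1, a repressor of the ARNTL and CLOCK pair (ENSMUSG00000020038.10, chr10:85131700-85185064), went the other way. It had 4.27, 4.82 and 4.41 RPKM in naive and 6.48, 6.21 and 5.10 RPKM in vehicle samples, a log2 difference of -0.33 (SE 0.088, adjusted p = 0.00807 by limma). Cry2, the other cryptochrome (ENSMUSG00000068742.11, chr2:92403646-92434043), had 1.72, 1.84 and 1.70 RPKM in naive and 1.27, 0.878 and 0.849 RPKM in vehicle samples, and was 0.47 higher (SE 0.092).

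In the opposite arm the differences were larger for the PAR bZIP genes and Nr1d2. Tef (ENSMUSG00000022389.15, chr15:81802421-81826863) had 12.2, 13.1 and 14.1 RPKM in naive and 4.13, 2.84 and 2.87 RPKM in vehicle samples, which was 1.73 higher on the log2 scale (SE 0.12, adjusted p = 2.55e-06 by limma). Nr1d2, the REV-ERB beta gene (ENSMUSG00000021775.11, chr14:18204054-18239127), had 8.59, 8.58 and 8.46 RPKM against 3.13, 2.21 and 2.97 RPKM, a difference of 1.35 (SE 0.095). Dbp (ENSMUSG00000059824.12, chr7:45705088-45710203) had 5.17, 5.35 and 4.68 RPKM against 2.32, 1.37 and 1.27 RPKM, a difference of 1.21 (SE 0.14). None of these 3 genes overlapped between the groups. Nr1d1, the REV-ERB alpha gene (ENSMUSG00000020889.11, chr11:98767932-98775333), differed less, with 1.67, 1.93 and 1.32 RPKM against 1.01, 0.616 and 0.815 RPKM (0.54, SE 0.11, adjusted p = 0.00230 by limma).

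Per2 and Per3, which encode PERIOD repressors, did not pass the filter in this comparison. Per2 (ENSMUSG00000055866.9, chr1:91415982-91459324) had 0.935, 1.05 and 1.06 RPKM in naive and 0.752, 0.454 and 0.335 RPKM in vehicle samples. Per3 (ENSMUSG00000028957.12, chr4:151003652-151044665) had 1.07, 0.913 and 1.15 RPKM in naive and 0.280, 0.162 and 0.146 RPKM in vehicle samples. Neither gene overlapped between the groups (85.4% of genes tested did not), and both differed when no filter was applied (0.42 and 0.77, adjusted p = 0.0149 and 0.000139 by limma).

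Of the other 18 clock genes, 12 were tested here and all 12 passed the threshold, 7 higher and 5 lower in naive cells, with a median of 0.71. The largest differences were in Bhlhe40, a repressor of E-box transcription, at 1.15 ± 0.0749 RPKM in naive and 57.2 ± 4.95 RPKM in vehicle samples (SD, n = 3 each; log2 difference -4.76). Nfil3, a repressor that competes for D-boxes, had 5.50 ± 1.21 against 91.0 ± 13.7 RPKM, and Nampt, an enzyme of NAD synthesis under clock control, 9.32 ± 0.817 against 122 ± 18.8 RPKM. Per1, a PERIOD gene that also responds directly to glucocorticoids, had 5.81 ± 0.525 against 30.2 ± 4.11 RPKM, opposite to Per2 and Per3. Usp2, a deubiquitinase with a rhythmic transcript, was higher in naive cells, at 39.5 ± 1.10 against 7.40 ± 0.713 RPKM.

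The cell make-up differed between the same groups. The summed level of 7 microglia markers was 15284 to 15840 RPKM in naive and 1268 to 1846 RPKM in vehicle samples, and that of 8 monocyte and macrophage markers 44.0 to 60.1 RPKM and 1567 to 3310 RPKM. All 7 microglia markers were called higher in naive cells, and 7 of the 8 monocyte and macrophage markers lower. The summed level of 8 glucocorticoid-responsive genes was 196 to 213 RPKM in naive and 460 to 608 RPKM in vehicle samples, and that of 8 immediate early genes 994 to 1134 and 2715 to 3548 RPKM. The part of these in the clock gene differences was not tested, and in bulk samples fewer cells of a type and less RNA per cell cannot be told apart.

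The peptides were then compared in GL261 glioma at 21 DPI. Only Clock, Cry1, Nr1d2, Dbp and Tef passed the filter on low values among tumor-bearing samples. None of these 5 members passed the test between 7aaRGD and vehicle (0.148% of 9436 genes called), between 7aaRAE and vehicle (0% called) or between 7aaRGD and 7aaRAE (0% called), and 0 of them had an unadjusted p under 0.05 by limma in any of the 3 (13.5%, 6.36% and 5.51% of all genes). The log2 differences of the 5 ranged from -0.09 to 0.16 for 7aaRGD and from -0.18 to 0.08 for 7aaRAE against vehicle, and from -0.08 to 0.15 between the peptides, with SEs of 0.056 to 0.15. The comparisons with vehicle share the vehicle samples.

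Between 7aaRAE and vehicle, 2 of the 5 members did not overlap, in opposite directions, against 12.6% of all genes tested. Clock had 2.26, 2.24 and 2.37 RPKM with 7aaRAE, all above the vehicle samples (0.08, SE 0.056, adjusted p = 0.766 by limma). Tef had 2.69, 2.81 and 2.76 RPKM, all below the vehicle samples, of which sample 1 was highest at 4.13 RPKM (-0.18, SE 0.11, adjusted p = 0.743 by limma). Without vehicle sample 1 the Tef difference was -0.04, and without any other single sample it was between -0.25 and -0.16. The other members overlapped between 7aaRAE and vehicle. Over all 9 tumor-bearing samples, Cry1 ranged from 5.10 to 7.29, Nr1d2 from 2.21 to 3.74, Dbp from 1.23 to 2.32, Arntl from 0.666 to 0.922, Cry2 from 0.595 to 1.27, Nr1d1 up to 1.01, Per2 from 0.301 to 0.752 and Per3 from 0.131 to 0.280 RPKM. Vehicle sample 1 had the highest Tef, Dbp, Nr1d1, Per2, Per3 and Cry2 of the 9. None of the 13 other clock genes tested passed in these comparisons, and 3, 1 and 0 of them had an unadjusted p under 0.05 by limma.

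The 28 DPI experiment asked how PD-1 blockade, alone or with 7aaRGD, relates to expression in the same cells. Cry1 was lower in both groups that received the antibody than in vehicle samples. Of the 9 members tested (all but Per3), 2 were lower with anti-PD-1 than with vehicle, Cry1 and Nr1d1, in a comparison that called 23.1% of 9732 genes (12.2% lower). With the combination 1 was lower than with vehicle, Cry1 (43.3% of genes called, 25.8% lower). Against 7aaRGD alone 4 were lower with the combination, namely Cry1, Clock, Cry2 and Per2 (36.6% called, 23.6% lower). No member was called higher in these 3 comparisons.

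Cry1 had 4.41, 5.59, 6.64 and 6.77 RPKM in the vehicle samples and 7.02, 6.29, 6.92 and 5.17 RPKM in the 7aaRGD samples. With anti-PD-1 it had 3.71, 3.82 and 3.08 RPKM, and with the combination 2.54, 3.78 and 2.94 RPKM. All 6 samples with the antibody lay below all 8 without it. The share of all genes separated in this way was not computed, and the shares that follow are for single pairs of groups. Over all genes, 17.1% did not overlap and were lower for anti-PD-1 against vehicle, 28.8% for the combination against vehicle and 25.8% for the combination against 7aaRGD. The log2 difference was -0.58 for anti-PD-1 (SE 0.14, adjusted p = 0.00943 by limma), -0.74 for the combination against vehicle (SE 0.14, adjusted p = 0.000934 by limma) and -0.85 for the combination against 7aaRGD (SE 0.14, adjusted p = 0.000559 by limma). Between the combination and anti-PD-1 the groups overlapped.

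Nr1d1 had 2.69, 2.15, 2.19 and 2.13 RPKM with vehicle, 2.00, 0.767 and 0.384 RPKM with anti-PD-1 and 1.07, 1.14 and 1.72 RPKM with the combination. The vehicle samples were above both other groups, and anti-PD-1 sample 1 lay close to them. The difference was -0.76 for anti-PD-1 (SE 0.23, adjusted p = 0.0298 by limma) and -0.52 for the combination (SE 0.23, adjusted p = 0.0820 by limma). The combination passed without anti-PD-1 sample 1 (adjusted p = 0.0255 by limma), which shares the estimate of spread. The call for anti-PD-1 was lost without anti-PD-1 sample 2 or 3 (adjusted p = 0.106 and 0.130 by limma) and without vehicle sample 1 or 2 (adjusted p = 0.0742 and 0.0528 by limma), and with no filter (0.0567). The 7aaRGD samples, at 1.28, 1.55, 2.94 and 1.58 RPKM, overlapped every other group.

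Another 3 members differed between the combination and 7aaRGD. Clock had 2.55, 2.90 and 2.62 RPKM against 3.30, 3.17, 3.62 and 3.35 RPKM (-0.24, SE 0.072, adjusted p = 0.0187 by limma). Cry2 had 0.755, 0.899 and 0.979 RPKM against 1.49, 1.07, 1.61 and 1.82 RPKM (-0.40, SE 0.11, adjusted p = 0.0101 by limma). Per2 had 1.23, 1.64 and 1.27 RPKM against 2.19, 2.08, 3.14 and 1.67 RPKM (-0.44, SE 0.15, adjusted p = 0.0313 by limma), and its groups were separated by the smallest gap. All 4 genes called were lower with the combination, in every sample. Per3, below the filter, went the other way without overlap, where 3927 of 9732 genes tested did not overlap. It had 0.417, 0.486 and 0.421 RPKM with the combination and 0.384, 0.353, 0.408 and 0.366 RPKM with 7aaRGD. With no filter its difference was 0.07 (adjusted p = 0.323 by limma). With TMM factors, which scale each sample to a common centre, Clock (-0.19, adjusted p = 0.0561 by limma) and Per2 (-0.40, adjusted p = 0.0583 by limma) no longer passed, and the split over all genes went from 1268 higher and 2292 lower to 1667 and 1659. By limma, Clock also lost the call without combination sample 1 (adjusted p = 0.0763) or 3 (adjusted p = 0.0628). Per2 lost it with no filter (adjusted p = 0.0563 by limma), without 7aaRGD sample 1 or 3 (0.0531 and 0.0769) and without combination sample 1 or 3 (0.107 and 0.0952).

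**Figure D2:**
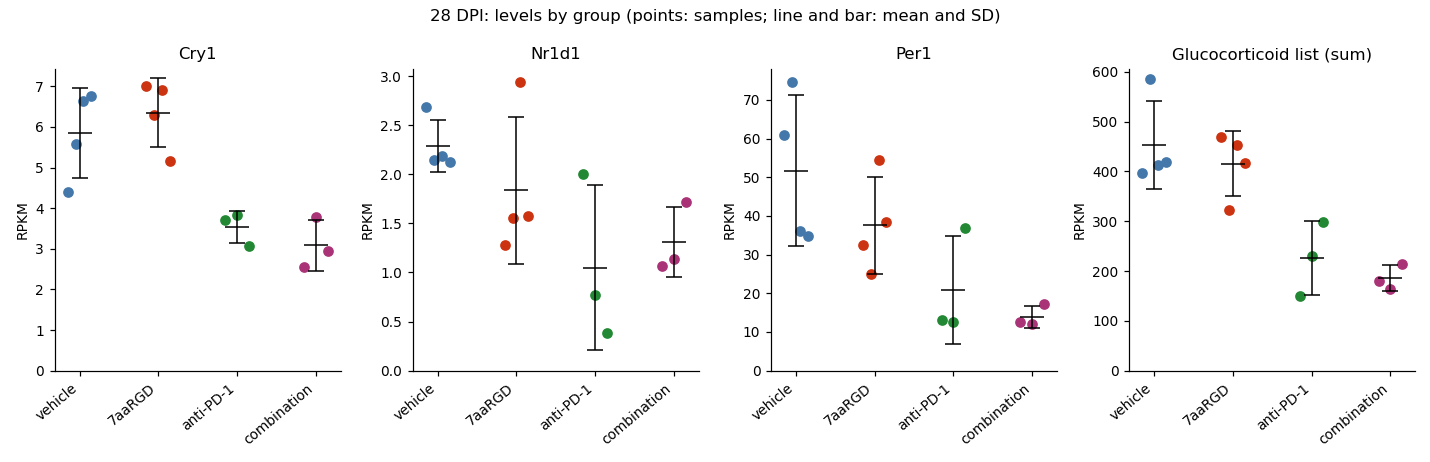
Levels in RPKM (vertical axis, from 0) of Cry1, Nr1d1, Per1 and the summed glucocorticoid-responsive list in the 4 groups at 28 DPI (horizontal axis); points are samples, the line is the mean and the bar the SD. Cry1 was 2.54 to 3.82 RPKM in the 6 samples with the antibody and 4.41 to 7.02 RPKM in the 8 without it.

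The remaining members did not pass in the antibody comparisons. Arntl, the activator, ranged from 1.12 to 1.51 RPKM over all 14 samples, Dbp from 1.36 to 2.48, Nr1d2 from 1.52 to 4.07, Tef from 2.67 to 6.80 and Per3 from 0.336 to 0.513 RPKM. Against vehicle, the differences of all 9 tested members were negative for anti-PD-1, with a median of -0.18 against -0.01 over all genes, and 7 of 9 were negative for the combination, with a median of -0.09 against -0.05. Members of both arms were among the negative differences. Between the combination and anti-PD-1, 0 of 9 members passed (0.0411% of genes called). The same held for the interaction of both treatments (0 of 9, 0% called), and 0 members had an unadjusted p under 0.05 by limma in either (1459 of all 9732 genes for the former and 8.16% of them for the interaction).

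No member passed the threshold between 7aaRGD and vehicle at 28 DPI (0 of 9, 0.647% of genes called). An unadjusted p under 0.05 by limma was reached by 2 of the 9, against 14.6% of all genes. Clock was higher in all 4 7aaRGD samples than in the vehicle samples, which had 2.79, 2.73, 2.78 and 3.16 RPKM (0.17, SE 0.066, adjusted p = 0.250 by limma), against 3.97% of genes that did not overlap and were higher.

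Other clock genes differed in the same comparisons. Per1 had 34.8 to 74.7 RPKM with vehicle, 24.9 to 54.5 with 7aaRGD, 12.6 to 36.9 with anti-PD-1 and 12.1 to 17.1 with the combination. Its log2 difference from vehicle was -1.37 for anti-PD-1 (SE 0.37, adjusted p = 0.0172 by limma) and -1.76 for the combination (SE 0.37, adjusted p = 0.00185 by limma). Csnk1e, a kinase that phosphorylates PERIOD proteins, had 22.5 to 26.6 RPKM with vehicle and 16.8 to 19.8 with anti-PD-1, with no overlap (-0.43, SE 0.093). These 2 genes, both lower, were the calls among the 12 other clock genes tested against vehicle for either antibody group. Over all genes, 23.1% were called for anti-PD-1 and 43.3% for the combination, so being called does not set these genes apart. Against 7aaRGD, the combination had 3 of the 12 higher and 5 lower, where 36.6% of all genes were called. The 5 largest differences were in Per1 (-1.34), Nfil3 (1.01), Bhlhe40 (0.57), Csnk1e (-0.53) and Usp2 (-0.45).

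Glucocorticoid-responsive genes differed between the same groups. The summed level of the 8 genes was 397 to 585 RPKM with vehicle, 323 to 469 with 7aaRGD, 150 to 299 with anti-PD-1 and 163 to 214 with the combination. Of the 8, 5 were lower for anti-PD-1 and 6 for the combination against vehicle. Of the 8 immediate early genes, 1 was higher for anti-PD-1, and for the combination 5 were higher and 1 lower. Markers of cell types differed too. Against vehicle, 1 of 7 microglia markers was called higher for anti-PD-1 and 4 for the combination (summed levels 1509 to 2122 RPKM with vehicle, 1676 to 2403 with anti-PD-1 and 2226 to 2357 with the combination). Of 8 monocyte and macrophage markers, 4 were called higher for anti-PD-1, and for the combination 4 higher and 1 lower (432 to 856, 512 to 1468 and 599 to 1381 RPKM). Of 6 oligodendrocyte lineage markers, 3 of the 5 tested were called lower for either group (26.2 to 40.2, 15.9 to 23.9 and 16.9 to 18.5 RPKM), with no overlap of the summed levels with vehicle.

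Lymphoid, dendritic and endothelial markers were at low levels. The summed level of 4 NK and T cell markers was 1.23 to 5.28 RPKM with vehicle, 1.54 to 25.5 with anti-PD-1 and 10.4 to 27.9 with the combination, and 0 and 2 of the 3 tested were called higher. For 3 dendritic cell markers it was 0.291 to 1.55, 1.80 to 12.9 and 5.23 to 10.6 RPKM, and the only 1 tested was called higher for both (1.89 and 2.56 on the log2 scale). For 2 endothelial markers it was 1.43 to 3.99, 2.84 to 10.2 and 5.89 to 11.4 RPKM, and the only 1 tested was called higher for both (1.25 and 1.55). Of 5 neutrophil markers tested, 0 and 1 were called, the latter lower, and of 2 astrocyte markers 0 and 1, the latter higher, and no neuron marker passed the filter. The part of these lists, and of the time of collection, in the Cry1 and Nr1d1 results was not tested.

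In U87-MG glioma no member passed the test. Of the 9 tested, 0 were called between 7aaRGD and vehicle (0% of 9659 genes called), between 7aaRAE and vehicle (0.0104% called) and between the peptides (0% called), and 0, 2 and 0 had an unadjusted p under 0.05 by limma (3.77%, 7.72% and 3.38% of all genes). The peptide comparisons with vehicle share the vehicle samples. The differences between the peptides ranged from -0.18 to 0.42, with SEs of 0.094 to 0.44. The upper end was Nr1d1 (SE 0.44), which was below the filter in GL261. There the upper end over the 5 tested members was 0.15, so the ranges cover unlike sets of genes.

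Cry1 and Nr1d1 varied most within the treated groups. Cry1 had 3.27, 2.00 and 2.45 RPKM with vehicle, 2.20, 8.90 and 4.93 RPKM with 7aaRGD and 3.65, 7.96 and 4.79 RPKM with 7aaRAE. The highest value of either peptide group was in the sample that stood apart. All 3 7aaRAE samples lay above the vehicle samples (0.82, SE 0.38, adjusted p = 0.650 by limma; 0.55 without the 2 libraries that stood apart), against 7.00% of genes that did not overlap and were higher. Nr1d1 had 2.76, 2.89 and 1.18 RPKM with vehicle, 3.13, 0.733 and 5.25 RPKM with 7aaRGD and 2.71, 1.04 and 1.45 RPKM with 7aaRAE. Its 2 lowest values were in the libraries with the 2 highest Cry1 values, and 7aaRGD sample 3 was highest in Nr1d1, Dbp, Tef and Per3.

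Clock was also highest in the libraries that stood apart, at 4.34 RPKM in 7aaRAE sample 2 and 3.65 RPKM in 7aaRGD sample 2, against 2.07 to 2.99 RPKM in the other 7. Dbp had 3.68, 3.63 and 1.56 RPKM with vehicle, 2.19, 2.36 and 4.68 with 7aaRGD and 1.72, 2.20 and 2.26 with 7aaRAE, so every group pair overlapped. 7aaRGD sample 3 also had the highest summed level of 6 neutrophil markers, 306 RPKM against 23.1 to 83.7 RPKM in the other 8, and the highest H2-Ea-ps. The part of these in its clock gene levels was not tested.

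Cry2, and Per2 with 7aaRAE, did not overlap vehicle. Cry2 had 1.40, 1.27 and 1.43 RPKM with vehicle, 1.52, 1.69 and 1.97 with 7aaRGD and 2.26, 1.89 and 2.09 with 7aaRAE. Neither peptide group overlapped vehicle (4.42% of genes did not overlap and were higher for 7aaRGD), with differences of 0.20 for 7aaRGD (SE 0.094, adjusted p = 0.941 by limma) and 0.38 for 7aaRAE (SE 0.094, adjusted p = 0.331 by limma). Per2 had 1.10, 1.09 and 0.964 RPKM with vehicle and 1.27, 2.22 and 1.67 RPKM with 7aaRAE (0.39, SE 0.16, adjusted p = 0.591 by limma), the highest in a library that stood apart, and the difference was 0.26 without both such libraries. The glucocorticoid-responsive list differed along with these genes: its summed level was 378, 345 and 276 RPKM with vehicle and 425, 843 and 514 RPKM with 7aaRAE, highest in the library that stood apart. Of its 8 genes, 7 were higher with 7aaRAE, with a median of 1.21; 0 passed the threshold by limma, 6 had an unadjusted p under 0.05 and 5 did not overlap. Its part in the Cry1, Cry2 and Per2 values was not tested. Of the 13 other clock genes tested, 0 passed in any of the 3 comparisons, and 3, 2 and 0 had an unadjusted p under 0.05 by limma. Without the 2 libraries that stood apart, a set chosen after seeing the data, the members called stayed at 0 in all 3 comparisons.

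**Figure D3:**
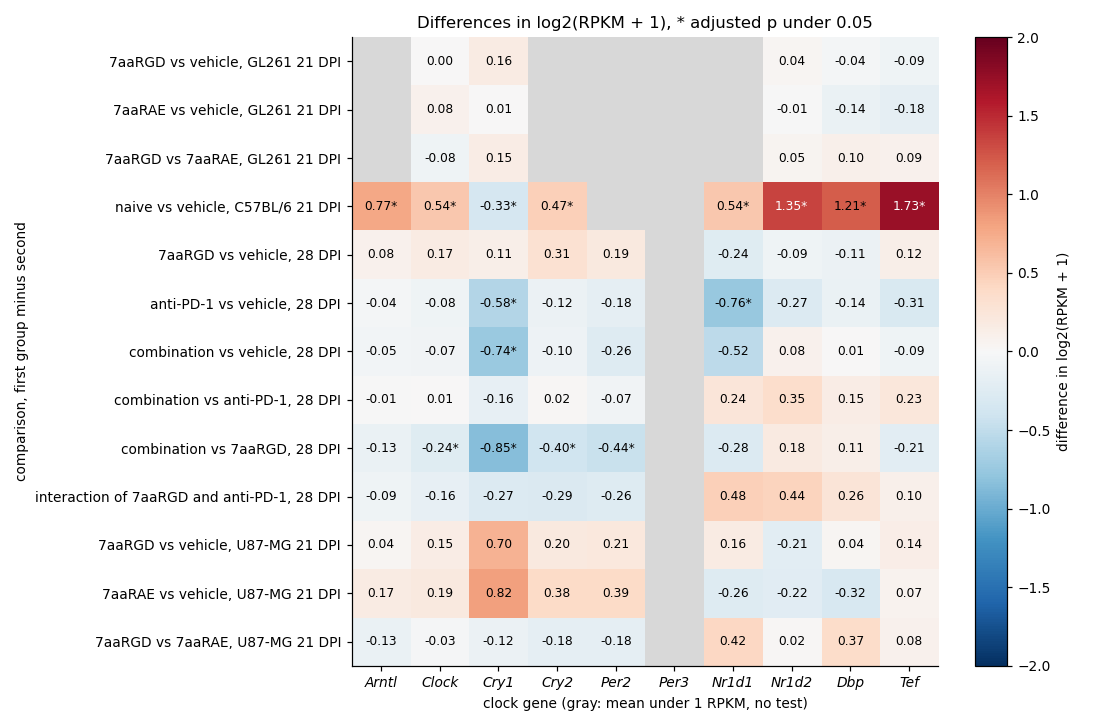
Difference in log2(RPKM + 1) of each clock gene (columns) in each comparison (rows), first group minus second; an asterisk marks an adjusted p under 0.05 by limma, and gray a mean below 1 RPKM, where no test was made. The 8 calls between naive and vehicle samples include both arms. Cry1 is among the calls in all 3 antibody comparisons that have one, and is the only call for the combination against vehicle.

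Whether the arms opposed each other across samples was examined last. For each tumor-bearing sample, the mean departure of the 3 ARNTL-phase genes from the experiment's median was set beside that of the 6 genes of the opposite arm. The departures had opposite signs in 4 of 9 GL261 samples, 7 of 14 samples at 28 DPI and 5 of 9 U87-MG samples, 16 of 32 in all. Opposite signs were thus no more common than their absence. Group means were not subtracted, so these signs mix differences between treatments with differences between samples. At 28 DPI the ARNTL-phase arm was at -0.26 to -0.11 in the samples with the antibody and at -0.03 to 0.28 in the others. Cry1 alone was at -0.71 to -0.26 in the samples with the antibody. Departures were small in GL261, from -0.10 to 0.05 for the ARNTL-phase arm and from -0.08 to 0.27 for the other, so most signs there rest on small values. They were widest in U87-MG, where 7aaRGD sample 2 had 0.46 and -0.25 and 7aaRAE sample 2 had 0.56 and -0.06. Vehicle sample 2, which did not stand apart, had -0.38 and 0.09. 7aaRGD sample 3 had 0.10 and 0.42, and vehicle sample 3 had -0.14 and -0.37, so both arms departed the same way in these 2.

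**Figure D4:**
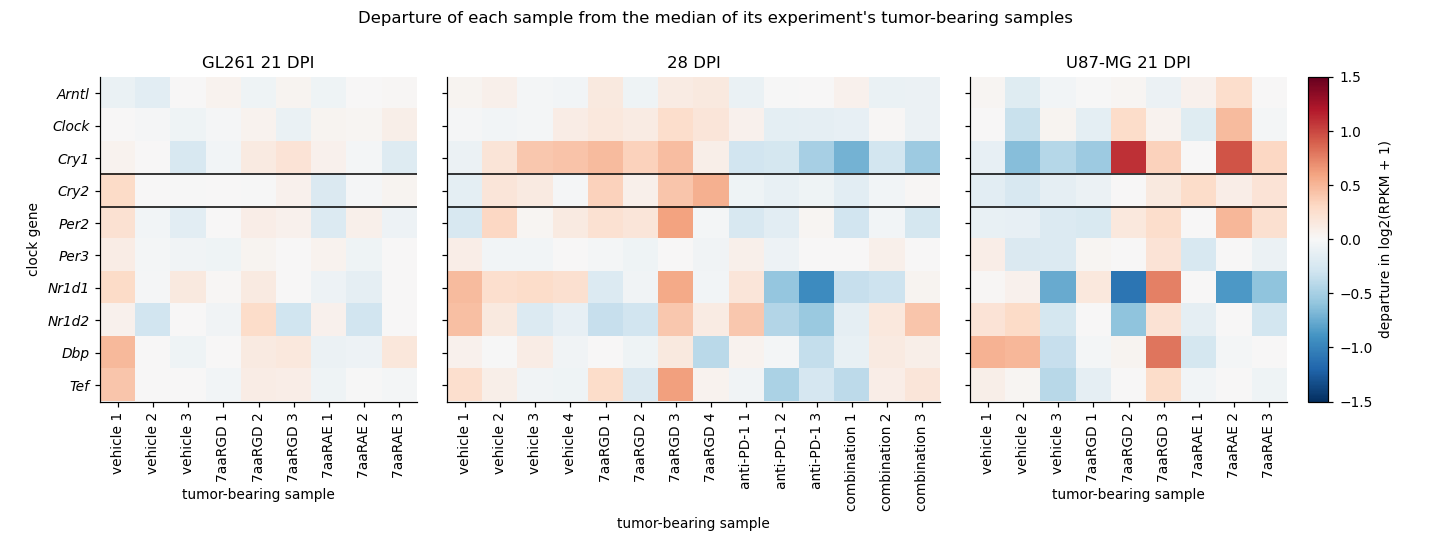
Departure of each tumor-bearing sample (columns) from the median of its experiment in log2(RPKM + 1) (color) for each clock gene (rows); lines set Cry2 apart from the ARNTL-phase arm above and the opposite arm below. Opposed colors within a column are clearest in the U87-MG samples 7aaRGD 2 and 7aaRAE 2, in Cry1 and Nr1d1. With group means not subtracted, the arms had opposite signs in 16 of 32 samples.

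Arntl was compared with Nr1d1 and with Dbp over the tumor-bearing samples of each experiment, 6 relations in all. In GL261 (n = 9), Pearson's r was -0.239 with Nr1d1 (exact permutation p = 0.538, adjusted 0.712) and -0.215 with Dbp (exact permutation p = 0.593, adjusted 0.712), and Spearman's rho was 0 and -0.0667 (exact permutation p = 1.00 and 0.880, adjusted 1.00 for both). At 28 DPI (n = 14), r was 0.0933 (permutation p = 0.753, adjusted 0.753) and -0.351 (permutation p = 0.223, adjusted 0.476), and rho 0.0813 and -0.257 (permutation p = 0.786 and 0.376, adjusted 1.00 and 0.873). In U87-MG (n = 9), r was -0.501 (exact permutation p = 0.166, adjusted 0.476) and -0.446 (exact permutation p = 0.238, adjusted 0.476), and rho -0.633 and -0.300 (exact permutation p = 0.0760 and 0.437, adjusted 0.456 and 0.873). No relation passed the threshold, all tests being two-sided.

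Leaving out the 2 samples farthest from the median of Arntl gave r of -0.0623 and 0.153 in GL261, 0.207 and -0.122 at 28 DPI and -0.375 and -0.444 in U87-MG. Without the 2 U87-MG libraries that stood apart, r was -0.239 with Nr1d1 and -0.520 with Dbp (n = 7). The relation of Arntl to Nr1d1 at 28 DPI turned from 0.0933 to -0.250 when group means were subtracted.

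**Figure D5:**
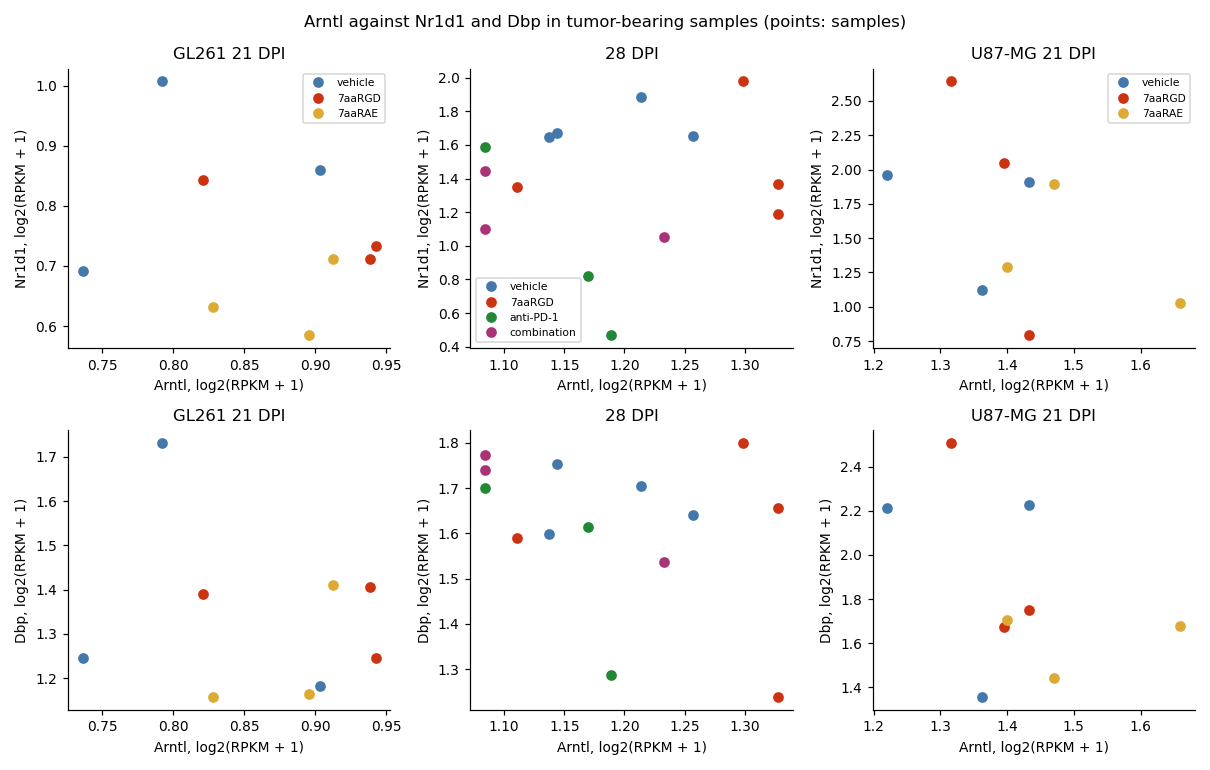
Arntl (horizontal axis) against Nr1d1 (top) and Dbp (bottom), both in log2(RPKM + 1), in tumor-bearing samples of the 3 experiments; points are samples, colored by group. Pearson's r lay between -0.501 and 0.0933 in the 6 panels, and none passed the threshold.

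The spread within groups also differed between members. In log2(RPKM + 1), the within-group SD of Nr1d1 was 0.659 in U87-MG and 0.338 at 28 DPI, against medians over all genes tested of 0.144 and 0.128. That of Cry1 was 0.567, 0.199 and 0.137 in U87-MG, at 28 DPI and in GL261, where the median was 0.0964. Arntl, at 0.105 in U87-MG and 0.0794 at 28 DPI, was below the median of all genes in those experiments. Clock, at 0.0808 at 28 DPI and 0.0478 in GL261, was also below it there, but was above it in U87-MG at 0.258. The U87-MG spreads include the libraries that stood apart and were not computed without them. Those libraries held the highest Cry1 and Clock values and the lowest Nr1d1 values of that experiment.

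Genes most like Dbp and Arntl were found from log2(RPKM + 1) with group means subtracted, over 35 samples and 9064 genes. The U87-MG libraries that stood apart are among these samples. Samples share their library and normalization, and no test is given. For Dbp, the highest Pearson's r belonged to Ltb (0.722), Gpank1 (0.721), Tsc22d1 (0.660), Zfp12 (0.651) and Tef (0.651), and the lowest to Chaf1b (-0.745), Aig1 (-0.704), Map3k7 (-0.685), Minpp1 (-0.666) and Slc7a1 (-0.645). Tef, the other PAR bZIP gene, was thus at rank 5, and Nr1d2 was at rank 100 (0.471), Cry1 at 909 (0.259), Cry2 at 1278 (0.215), Clock at 3795 (0.0305) and Arntl at 8069 (-0.270). For Arntl, the highest were Nfia (0.742), Tbc1d23 (0.740), Pigm (0.726) and Insr (0.709), and the lowest Rps3a1 (-0.697), Tfg (-0.687), Trmt112 (-0.662), Aven (-0.653) and Tkfc (-0.648). Clock, its partner, was at rank 889 (0.369), Cry2 at 3315 (0.122), Cry1 at 3344 (0.120), Tef at 4887 (-0.0107), Nr1d2 at 6098 (-0.120) and Dbp at 7591 (-0.270). Nr1d1, Per2 and Per3 were below 1 RPKM on average in at least 1 table and have no rank. In GL261, Arntl and Cry2 reached 1 RPKM only through the naive samples. Their means over the 9 tumor-bearing samples were 0.821 and 0.890 RPKM.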

How the data were processed

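RNA sequencing of CD11b+ cells gave 3 deposited tables. Per the labels and the study's methods, reads were trimmed with Trimmomatic, aligned with STAR to mm10 and counted per gene with HTSeq 0.11.1, as paired and reverse-stranded reads. The authors' deposited values are RPKM with a constant of 2 added; 2 was subtracted. Some values lay under the constant, so counts and depth could not be recovered. The deviations of replicates from group means spanned 7 of 8 possible dimensions in GL261, 9 of 10 at 28 DPI and 6 of 6 in U87-MG, and the residual degrees of freedom were not reduced for this. Gene names were mapped to GENCODE M21 (98.7% of rows).

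Genes annotated as protein-coding were tested where they averaged 1 RPKM or more over the fitted samples, by limma 3.58.1 (R 4.3.3; lmFit, eBayes with trend) on log2(RPKM + 1), all tumor-bearing groups of an experiment sharing the spread, except that naive and vehicle samples were fitted on their own, with Benjamini-Hochberg adjustment over all genes tested and a threshold of 0.05. A fold change on this scale understates the change of low genes. The fit was tested on simulated data. NOISeq, the study's test, was not run. Correlations used two-sided permutation tests (exact for n = 9, otherwise 100000 resamples). The alternatives were pseudocounts of 0.1 and 5, no filter or at least 5 RPKM, unweighted TMM factors computed on RPKM, a replicate block, group means subtracted before a correlation, leaving out each replicate, adding naive samples and fitting only the groups compared. Full statistics are given for members past the threshold or with groups that do not overlap, and at most 5 other clock genes per comparison. The members and lists were chosen with earlier results of these data known. The U87-MG headers give the group of each column but not its replicate, so sample numbers there only name columns. A gene among those most like Arntl is not reported here.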

Additional observations from a re-analysis of the deposited data

Results flagged for a closer look

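At 28 DPI, 3 of 20 combinations of a member and a group of 4 samples held a sample far from the other 3 (Dixon's criterion at 95%); chance gives about 1 in 20. Clock in vehicle sample 4 was 3.16 RPKM, against 2.73 to 2.79 in the others. Nr1d1 in vehicle sample 1 was 2.69 RPKM, against 2.13 to 2.19. Arntl in 7aaRGD sample 2 was 1.16 RPKM, against 1.46 to 1.51.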

How the results depend on the processing

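Counts of members called kept within 1.5 times of the value reported under most alternatives. A filter of at least 5 RPKM left 3 calls between naive and vehicle samples, where 3 members were tested, and 0 in the antibody comparisons, where no member was left to test. For anti-PD-1 against vehicle, no filter and the replicate block each left 1, Cry1; under the block Nr1d1 had an adjusted p of 0.0591 by limma. For the combination against 7aaRGD, the block took Clock over the threshold to an adjusted p of 0.0577 by limma. For the combination against vehicle, fitting only both groups gave 2. For the combination against 7aaRGD, TMM factors left 2. The cause was not tested. Leaving out replicates gave 8 to 8 calls between naive and vehicle samples, 1 to 2 for anti-PD-1, 1 to 2 for the combination against vehicle, 2 to 4 against 7aaRGD and 0 to 0 elsewhere. Samples that share a replicate number rarely deviated the same way (r above 0.1 in 1 of 18 pairs in GL261 and 3 of 19 at 28 DPI). The block therefore rests on a number alone. Some of these pairs deviated in opposite ways. The lowest r was -0.773 in GL261 (vehicle 1 and 7aaRGD 1) and -0.499 at 28 DPI (7aaRGD 1 and anti-PD-1 1). Such samples cannot be taken as unrelated, and the reason was not tested. For U87-MG, no paired analysis was possible because its columns carry no replicate number of their own. Of 23 fold changes of tested members that passed the threshold or had groups that did not overlap, 0 reversed under 363 alternatives. Of these alternatives, 345 kept their side of the threshold, 16 lost it and 2 gained it. With group means subtracted, the r of Arntl with Nr1d1 became 0.0495 in GL261 and -0.250 at 28 DPI. Without the 2 samples farthest from the median of Arntl, its r with Dbp in GL261 became 0.153. TMM factors moved the median difference of all genes between naive and vehicle samples from 0.14 to -0.02. The depth is unknown, so what it limits could not be measured.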
